A study of Mus musculus with 4 samples.

Results

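The mouse array used for this series carries a large block of probes that are named only by genome coordinates and a strand letter, and these probes for intergenic noncoding RNA are described here across 4 arrays. They were found by their name alone: every probe that is no control spot and whose gene name has the form chromosome, start, end and F (forward) or R (reverse) was taken, apart from 17 regions with 77 probes in a stretch of chromosome 12 that was left out. This gave 16104 probes in 4590 strand-level regions, out of 55681 probes and 34964 genes, transcripts and regions on the whole array. The 4590 regions lie in 3528 intervals, of which 1244 had a forward name only, 1222 a reverse name only and 1062 both. The rule itself uses no measured value. All coordinates are those of the files, mouse build mm9 (NCBI37).

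The cells were mouse embryonic fibroblasts from E13.5 embryos (male, by the labels) of a strain with an Oct4-EGFP reporter transgene, mixed from several embryos, in which retroviruses delivered Oct4, Sox2 and Klf4, the transcription factors used to start reprogramming towards pluripotent stem cells. All 4 groups carried these 3 factors. The groups named OSKA also received AKT-MER, a myristoylated AKT kinase fused to a modified estrogen receptor, which 4-hydroxytamoxifen (4OHT) activates, and the groups named OSK did not. Either 4OHT or its vehicle, ethanol, was given from 3 days after infection (dpi), and RNA was taken at 8 dpi. There was 1 array for each of OSK-4OHT, OSK+4OHT, OSKA-4OHT and OSKA+4OHT, so that AKT was activated only on the array OSKA+4OHT, for which the title was followed because its description label says that AKT-MER was not activated. With 1 array per group there is no replicate, no test was possible, and each difference compares these arrays and not the conditions. All 4 arrays lay on 1 slide, where the position and the group cannot be told apart. In such bulk RNA, fewer cells of a type and less RNA per cell cannot be told apart either.

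Long intergenic noncoding RNAs are transcripts made outside protein-coding genes that are mostly capped, spliced and polyadenylated like messenger RNA but hold no long reading frame. Many are low in amount and restricted to a few cell types, some act on neighbouring genes or on chromatin, some are hosts of small RNAs, and for most no role is known. Catalogues of them were drawn in part from chromatin domains or from tiling data, which give an interval and not always a strand, and an array can then carry probes for both strands of 1 interval. The transcripts that such a probe reads can also be an unannotated end of a neighbouring gene.

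The probes printed here are those that the differences described further on turn on. All member probes were 60 bases long and no letter sequence was used by 2 of them. The following 4 come from a stretch of the reverse strand of chromosome 7 in which levels were higher on OSKA+4OHT than on OSKA-4OHT.
chr7:69081844-69083628_R, probe at chr7:69082902-69082961, minus strand: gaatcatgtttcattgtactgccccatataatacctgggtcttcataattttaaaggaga
chr7:69088784-69089906_R, probe at chr7:69089265-69089324, minus strand: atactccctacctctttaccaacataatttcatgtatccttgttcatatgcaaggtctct
chr7:69075022-69127242_R, probe at chr7:69090024-69090083, minus strand: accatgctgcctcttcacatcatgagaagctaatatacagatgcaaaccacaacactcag
chr7:69117827-69127242_R, probe at chr7:69117968-69118027, minus strand: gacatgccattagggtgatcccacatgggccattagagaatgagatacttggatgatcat
The next pair comes from a reverse-strand stretch of chromosome X that was higher on OSKA+4OHT too, next to the gene Plac1.
chrX:50407969-50410370_R, probe at chrX:50408238-50408297, minus strand: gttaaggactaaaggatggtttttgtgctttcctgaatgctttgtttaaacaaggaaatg
chrX:50400250-50410825_R, probe at chrX:50406967-50407026, minus strand: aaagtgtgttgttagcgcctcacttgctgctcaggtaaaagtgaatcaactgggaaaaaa
The 3 probes of a region on chromosome 17, all lower on OSKA+4OHT than on OSKA-4OHT, follow.
chr17:3346621-3347209_F, probe at chr17:3346959-3347018, plus strand: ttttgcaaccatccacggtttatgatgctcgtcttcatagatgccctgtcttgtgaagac
chr17:3346621-3347209_F, probe at chr17:3347048-3347107, plus strand: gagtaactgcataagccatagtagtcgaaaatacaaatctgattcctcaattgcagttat
chr17:3346621-3347209_F, probe at chr17:3347124-3347183, plus strand: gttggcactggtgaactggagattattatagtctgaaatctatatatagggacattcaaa
The 3 probes of a region near Neat1, all higher on OSKA-4OHT than on OSK-4OHT, were these.
chr19:5834117-5835940_R, probe at chr19:5834543-5834602, minus strand: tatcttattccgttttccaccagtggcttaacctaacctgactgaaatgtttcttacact
chr19:5834117-5835940_R, probe at chr19:5834603-5834662, minus strand: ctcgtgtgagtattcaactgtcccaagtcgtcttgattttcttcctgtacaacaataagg
chr19:5834117-5835940_R, probe at chr19:5834857-5834916, minus strand: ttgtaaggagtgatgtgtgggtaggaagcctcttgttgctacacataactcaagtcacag

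Some probes are shown because their neighbours in the same region did not move with them. In the region chr14:64735748-64736349_R, 1 probe gave the largest rise of all regions under AKT activation and the other probes did not.
chr14:64735748-64736349_R, probe at chr14:64735749-64735808, minus strand: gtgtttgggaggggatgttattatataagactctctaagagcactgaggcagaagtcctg
chr14:64735748-64736349_R, probe at chr14:64735824-64735883, minus strand: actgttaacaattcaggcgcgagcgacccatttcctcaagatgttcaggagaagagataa
chr14:64735748-64736349_R, probe at chr14:64735902-64735961, minus strand: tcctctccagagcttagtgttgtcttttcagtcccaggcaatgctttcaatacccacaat
The region chr5:34696192-34722842_R had the next largest rise, on a probe of 76.7% G and C.
chr5:34696192-34722842_R, probe at chr5:34713023-34713082, minus strand: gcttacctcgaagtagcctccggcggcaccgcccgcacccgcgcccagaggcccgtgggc
chr5:34696192-34722842_R, probe at chr5:34713150-34713209, minus strand: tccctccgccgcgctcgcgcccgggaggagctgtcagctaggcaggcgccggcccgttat
In the next sequence, which belongs to a region with one of the 10 highest levels, capitals mark the 57 letters it has in common with an array probe of Rn45s, the ribosomal RNA precursor gene.
chr17:39982023-39983277_F, probe at chr17:39983218-39983277, plus strand: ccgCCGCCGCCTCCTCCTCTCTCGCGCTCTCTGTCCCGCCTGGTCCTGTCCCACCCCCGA
The region with the highest level of all, near Malat1, was read by a probe that has no such letters in common with a named gene's probe.
chr19:5801802-5802597_R, probe at chr19:5802130-5802189, minus strand: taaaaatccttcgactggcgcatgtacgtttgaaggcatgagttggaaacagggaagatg
The last pair holds exactly complementary sequences from 1 interval on chromosome 14, which read opposite strands of the same 60 bases.
chr14:67585234-67596823_F, probe at chr14:67588801-67588860, plus strand: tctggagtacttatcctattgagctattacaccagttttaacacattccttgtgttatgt
chr14:67585234-67596823_R, probe at chr14:67588801-67588860, minus strand: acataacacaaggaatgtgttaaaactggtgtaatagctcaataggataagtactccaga

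Fewer of these probes than of the array's other probes gave a signal. A level here is the log2 of the scanner software's processed signal minus the log2 of the 75th percentile of all probes of that array, so that 0 is the 75th percentile, and a probe is called measured where the software marked it well above background. The share of member probes measured was 31.8% on OSK-4OHT, 30.6% on OSK+4OHT, 34.9% on OSKA-4OHT and 31.5% on OSKA+4OHT, against 60.2%, 59.6%, 62.1% and 60.8% of the other probes. The measured member probes were also dim, with a median level of -2.66, -2.53, -2.79 and -2.69 on the 4 arrays in the same order, where the measured other probes had medians of 0.19, 0.23, 0.06 and 0.14. A level depends on the probe as well as on the RNA, so these medians do not rank amounts of transcript.

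**Figure D1:**
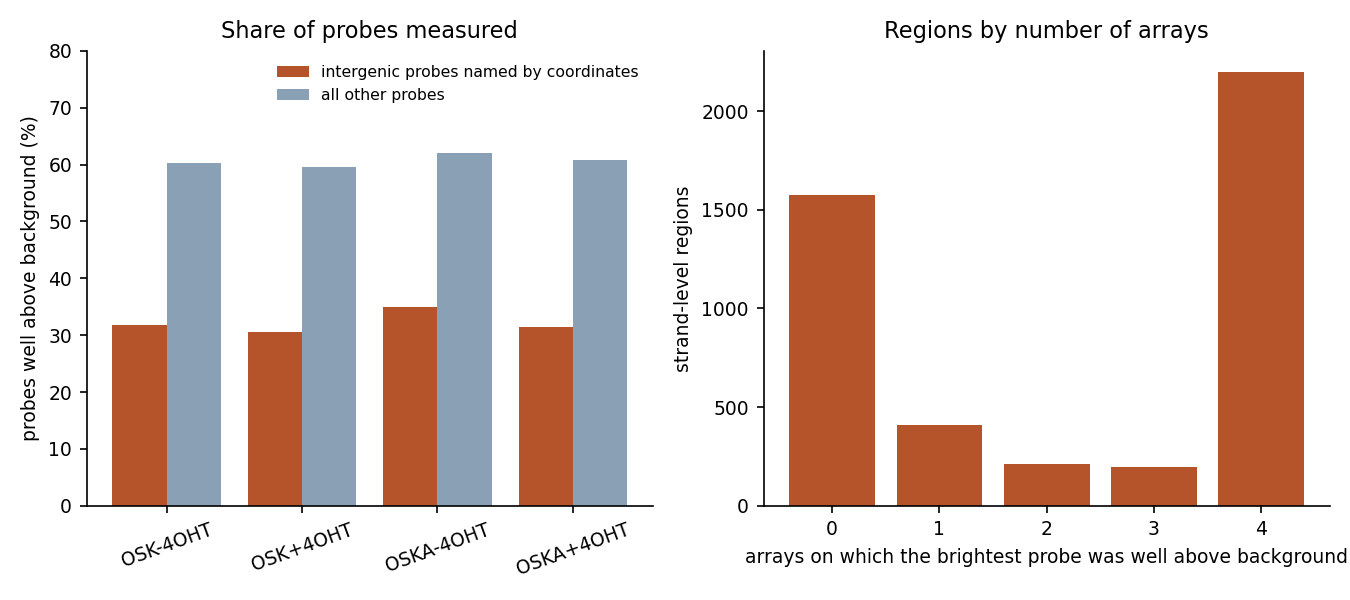
Left, the share of probes (%) that was well above background on each of the 4 arrays, for the probes named by coordinates and for all other probes. Right, the number of strand-level regions by the number of arrays on which the brightest probe was well above background. The member probes stand at 30.6% to 34.9% and the others at 59.6% to 62.1%, and most regions were measured on all 4 arrays or on none.

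Each region was represented by its brightest probe, the one with the highest mean over the 4 arrays. By that probe 2530 regions (55.1%) were measured on OSK-4OHT, 2452 (53.4%) on OSK+4OHT, 2715 (59.2%) on OSKA-4OHT and 2513 (54.7%) on OSKA+4OHT. The choice of the brightest probe raises this share above that of single probes. On all 4 arrays 2196 regions (47.8%) were measured, and 1574 (34.3%) were measured on none. A further 412 regions were measured on 1 array only, 157 of them on OSKA-4OHT, 103 on OSK-4OHT, 85 on OSKA+4OHT and 67 on OSK+4OHT. OSKA-4OHT had the largest of these counts and also the largest share of regions measured.

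Within a region the probes were far from uniform. A region had a median of 3 probes and at most 10, and 690 regions had 1. Among the 3368 regions with 3 or more probes, every probe was measured in 10.5% to 12.6% of regions, depending on the array, and no probe in 34.7% to 40.7%. In the 1988 regions with several probes whose brightest probe was measured on all 4 arrays, that probe stood above the second by a median of 1.53 on the log2 scale. The interval length ran from 62 to 7128487 bases with a median of 7315.5. The share of regions measured on all 4 arrays was 39.2% in the shortest of 3 equal groups of intervals, 50.3% in the middle group and 54.1% in the longest, which had a mean of 2.59, 3.81 and 4.12 probes per region.

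The 10 regions with the highest levels included several with letters in common with genes that every cell uses. The highest was chr19:5801802-5802597_R, which lies 6030 bases from the Malat1 probe on the same strand, a long nuclear noncoding RNA of most cell types, at levels of 8.84 on OSK-4OHT, 8.72 on OSK+4OHT, 9.12 on OSKA-4OHT and 8.85 on OSKA+4OHT. It was followed by chr11:22681800-22707775_R at 8.37, 8.47, 8.29 and 8.01, and 45 of the 60 letters of that probe are also in a probe of Rps16, a protein of the small ribosomal subunit. Another ribosomal protein gene, Rps29, shares 28 letters with the probe of chr7:108209996-108216032_R, which stood at 7.56, 7.80, 7.37 and 7.53. The region chr17:39982023-39983277_F, whose probe is printed above with the Rn45s letters in capitals, gave 7.46, 7.60, 7.51 and 7.39. All 60 letters of the brightest probe of chr3:87757295-87774970_F are those of a probe of Crabp2, a binding protein for retinoic acid. Distances here and below run from the region to the position of the gene's probe. The extent of the genes was not at hand, so a region described as near a gene may lie inside that gene's transcript. In all, 4 of the 10 had at least 25 letters in common with a probe of a gene or another transcript, in each case a gene named here, against 76 of the 2196 regions measured on all 4 arrays, where transcripts without a gene symbol were counted too. Such a probe can read the gene's transcript, and the levels of these regions cannot be told apart from those of the genes.

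4 differences between arrays were taken: OSK+4OHT minus OSK-4OHT, called the 4OHT difference in OSK cells, OSKA+4OHT minus OSKA-4OHT, the 4OHT difference in OSKA cells, OSKA-4OHT minus OSK-4OHT, the AKT-MER difference without 4OHT, and OSKA+4OHT minus OSK+4OHT, the AKT-MER difference with 4OHT. Each array enters 2 of them, so these are not independent. A difference was taken where the brightest probe was measured on both arrays, and a region was counted as changed at 2-fold or more. The software's own error of one such difference, which covers the measurement on the arrays and not the spread between cultures, had a median of 0.22 on the log2 scale.

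Few regions changed in any of them. In OSK cells, 4OHT went with at least 2-fold higher levels in 25 and lower levels in 20 of 2288 regions, that is 1.97%, where 0.893% of all genes, transcripts and regions of the array changed, 0.617% upwards and 0.276% downwards. In OSKA cells, where 4OHT activates AKT-MER, 37 regions were higher and 46 lower of 2389, or 3.47%, beside 2.91% over the whole array (2.01% higher and 0.899% lower). The AKT-MER difference without 4OHT had 48 higher and 32 lower of 2393 regions, or 3.34%, beside 2.02% (1.09% and 0.928%). The AKT-MER difference with 4OHT had 31 higher and 47 lower of 2269, or 3.44%, beside 3.03% (1.92% and 1.12%). The regions changed somewhat more often than the array as a whole in all 4, and in the 2 differences that hold the AKT-activated array the regions had more falls than rises while the array had more rises. Several strand-level regions can overlap: the 45, 83, 80 and 78 changed regions lie in 44, 80, 76 and 77 separate loci.

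How far the order of falls and rises held depended on the setting. The median difference of all regions was 0.07, -0.07, 0.05 and -0.11, in the order in which the 4 differences were named, and rises made up 55.6%, 44.6%, 60% and 39.7% of the changed regions. Quantile normalization kept the order in each difference, with 25 higher and 21 lower, 36 and 41, 44 and 39, and 31 and 48. With the arrays set to their spike-in control RNAs instead of their 75th percentile, the median of all genes, transcripts and regions moved from -0.00, -0.03, -0.02 and -0.05 to -0.33, 0.02, -0.48 and -0.14, and the counts became 8 higher and 48 lower, 38 and 38, 8 and 137, and 26 and 67, so that rises made up 14.3%, 50%, 5.52% and 28.0%. Falls then outnumbered rises with 4OHT in OSK cells and with AKT-MER without 4OHT, where rises had been more frequent, and still did with AKT-MER and 4OHT. With the unprocessed signals corrected by normexp with an added offset and then quantile normalized, steps that were not changed one at a time, only 3 higher and 1 lower, 10 and 7, 5 and 5, and 11 and 3 regions passed 2-fold, and rises made up 75%, 58.8%, 50% and 78.6%, so that rises outnumbered falls in both differences that hold the AKT-activated array. Of the 95 differences of at least 2-fold that the named regions showed, 80 stayed at 2-fold in the same direction with spike-in scaling and 34 with normexp, and neither setting turned a sign. Values under these settings are given below for some regions only, so a call printed without them did not necessarily stay at 2-fold.

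The share of changed regions varied with the level. In the 4OHT difference in OSKA cells, 6.09% of regions with a mean level between -4 and -3 changed, beside 8.26% of the other genes and transcripts in that bin, and 3.49% beside 5.83% between -3 and -2. Above a level of 1, 1.69% of regions changed beside 0.794% of the others. In that difference the regions changed less often than genes of like level in each bin under -1 and more often in both brighter bins, with 2.72% beside 2.38% between -1 and 1. The other differences did not share this order. With 4OHT in OSK cells the regions changed more often in 5 of the 6 bins, for example 3.79% beside 3.07% between -4 and -3, and less often between -3 and -2, with 1.65% beside 2.26%. Between -4 and -3 the shares were 5.78% beside 5.27% with AKT-MER without 4OHT, and 5.96% beside 6.39% with AKT-MER and 4OHT.

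Beside the differences stand regions with a bound, measured on 1 of the 2 arrays only. In the same order, 399, 439, 432 and 421 regions had such a bound. By it 42, 45, 40 and 30 regions were at least 2-fold higher and 44, 50, 62 and 57 at least 2-fold lower. The share over the whole array is not given for bounds, so these counts are no result about the regions. The largest bounds in the 4OHT difference in OSKA cells were single probes too: chr7:66570691-66573827_R was at least 17.1-fold higher, at -0.81 on OSKA+4OHT and not above background on any other array, while its other 2 probes were not above background there. The region lies 9361 bases from Ube3a, a ubiquitin ligase gene on the opposite strand. In the other direction chr8:126268510-126290810_R was at least 7.75-fold lower, at -4.12, -2.07 and -1.81 on OSK-4OHT, OSK+4OHT and OSKA-4OHT and not above background on OSKA+4OHT.

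The 4OHT differences with and without AKT-MER share no array, and across the 2196 regions measured on all 4 arrays they had a Pearson r of 0.007 and a Spearman rho of 0.021, given as a description over regions that share the same 4 hybridisations. Only 4 regions passed 2-fold in both, and each did so in opposite directions. Counting each array against the other 3, 13 regions (0.592%) were at least 2-fold above every other array on OSKA+4OHT and 12 (0.546%) below. Of all genes, transcripts and regions 0.939% and 0.306% were. OSK-4OHT had 9 above and 5 below (0.410% and 0.228%, beside 0.0918% and 0.153%). OSKA-4OHT had 5 and 5 (0.228% and 0.228%, beside 0.102% and 0.107%). OSK+4OHT had 2 and 2 (0.0911% and 0.0911%, beside 0.0561% and 0.0153%). The AKT-activated array stood apart most often among the regions as on the whole array. On it the regions were less often above, and more often below, than the array as a whole.

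**Figure D2:**
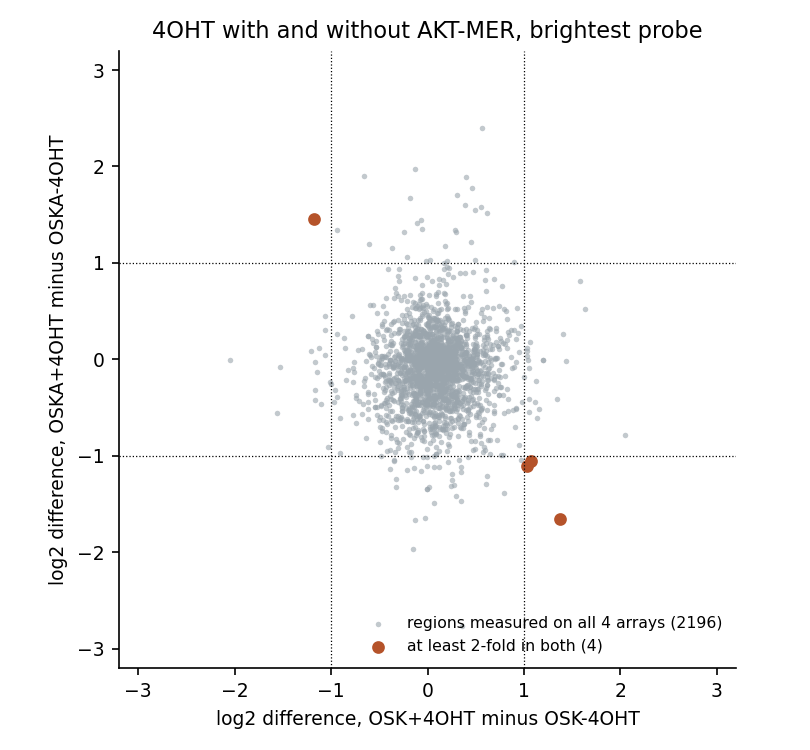
Each point is 1 of 2196 regions measured on all 4 arrays, with the log2 difference OSK+4OHT minus OSK-4OHT on the x axis and OSKA+4OHT minus OSKA-4OHT on the y axis, brightest probe. The 4 regions at least 2-fold in both, in the darker colour, lie in the quadrants of opposite sign.

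Whether the probes of 1 region moved together can be checked within an array. They share their target and the hybridisation and are no replicates. In regions with 2 or more probes measured on both arrays, of which there were 1091, 1152, 1155 and 1073 in the 4 differences, all measured probes were at least 2-fold higher in 2, 3, 8 and 3 regions and lower in 2, 1, 2 and 3. Of the changed regions, 21, 32, 35 and 28 had a second measured probe. That probe had the same sign in 13, 21, 26 and 19 of them, and was itself 2-fold in the same direction in 5, 4, 10 and 8. Among genes with 2 probes of their own, 8, 58, 33 and 59 changed by their brightest probe, and in 2, 35, 19 and 41 the second probe was 2-fold the same way. The r between the differences of the brightest and second probes was 0.35, 0.35, 0.42 and 0.46 over regions and 0.34, 0.62, 0.51 and 0.67 over genes. A change of a region on 1 probe was thus seldom matched at 2-fold by the next probe in the 4OHT difference in OSKA cells, and that of a gene more often.

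**Figure D3:**
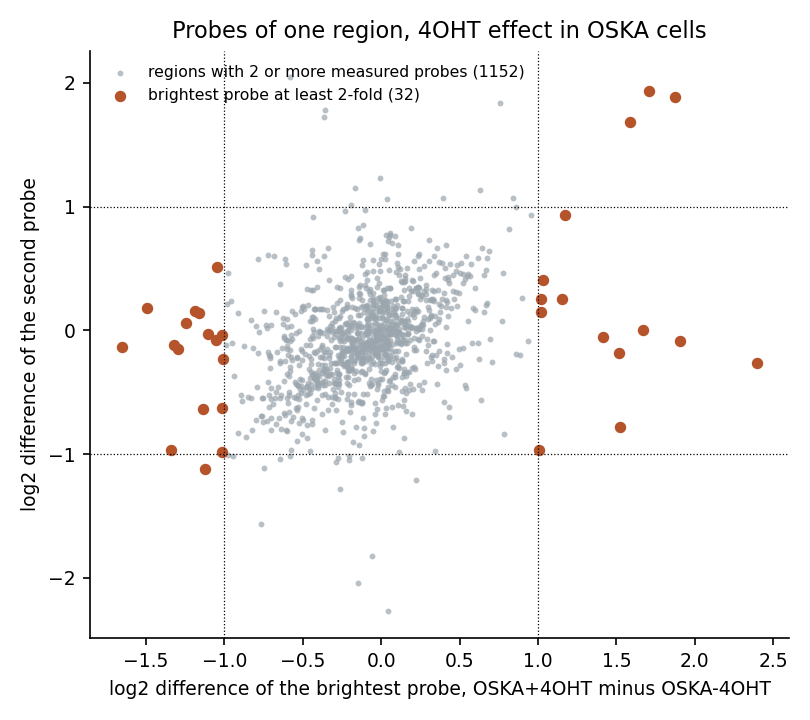
Each point is a region with 2 or more probes measured on both arrays, with the log2 difference OSKA+4OHT minus OSKA-4OHT of its brightest probe on the x axis and of its second probe on the y axis. The 32 regions whose brightest probe changed at least 2-fold are in the darker colour, and for 4 of them the second probe passed 2-fold in the same direction.

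A stricter check came from probes spotted under a second name. For 76 member probes, each in a region of its own, another probe of the array has the same 60 letters. Where both were measured on both arrays, which held for 34, 35, 36 and 33 pairs, the median gap between their differences was 0.13, 0.08, 0.13 and 0.08 on the log2 scale, and the gap reached 2-fold in 1, 1, 2 and 0 pairs. The r between their differences was 0.29, 0.82, 0.57 and 0.82. The region's probe passed 2-fold in 1, 1, 3 and 1 pairs, and its twin did so in the same direction in 0, 1, 0 and 1 of these, so that none of the 3 changes with AKT-MER without 4OHT was matched at 2-fold. In 1 of these 3 the twin came close, with 0.93 under the name of Pura beside 1.17 for the region on chromosome 18. The region chr10:21463672-21466812_F stood at -0.30 on OSK-4OHT and -2.35, -2.37 and -2.38 on the other arrays, which made it the largest fall of the 4OHT difference in OSK cells (-2.05), while its twin under the name BY352782 read -1.88, -1.85, -1.98 and -1.89 and gave 0.03. The 1 high spot on OSK-4OHT was not matched by the twin. In OSKA cells the twin of Crabp2 letters moved with its region, by 1.44 and 1.42. These pairs were looked for after the values had been seen.

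Few stretches changed on several probes when AKT was activated. Overlapping regions of 1 strand were joined into loci, after the values had been seen, and of 657 loci with 3 or more probes measured on both OSKA arrays the median of the probes was at least 2-fold higher in 4 and lower in 2. The 4 higher ones were on chromosomes 7 and X and on the forward and reverse strands of chr3:87757295-87774970, 29 bases from Crabp2. A like count over genes is not given. The longest of these loci lies on the reverse strand of chromosome 7, where 6 overlapping regions joined into chr7:69008096-69131056. Of its 19 probes, 2 were measured on OSK-4OHT, 3 on OSK+4OHT, 6 on OSKA-4OHT and 10 on OSKA+4OHT. The 6 probes measured on both OSKA arrays were all at least 2-fold higher on OSKA+4OHT, between 1.59 and 1.93 on the log2 scale with a median of 1.79.

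The levels of its regions, for the probes printed above, were as follows. The region chr7:69075022-69127242_R read -3.82 on OSK-4OHT, -3.51 on OSK+4OHT, -3.13 on OSKA-4OHT and -1.42 on OSKA+4OHT, a difference of 1.71. Its neighbour chr7:69088784-69089906_R was not above background on either OSK array, and stood at -3.48 on OSKA-4OHT and -1.61 on OSKA+4OHT. The region chr7:69117827-69127242_R was not above background on OSK-4OHT, and read -3.58, -4.44 and -2.85 on the other arrays. Another, chr7:69081844-69083628_R, was measured on OSKA+4OHT only, at -2.09. OSKA+4OHT was the highest array for all of them. With normexp the differences of the first 3 in OSKA cells were 0.98, 0.98 and 0.53, below 2-fold, and with spike-in scaling 1.75, 1.92 and 1.63. The 7 probes with the lowest positions, which start at 69008097 to 69042941 and so lie at the downstream end of this strand, were not above background there, and 1 of them, in chr7:69024136-69131056_R, was measured on OSK-4OHT only, at -3.94. Inside the stretch and on its strand a probe of the transcript A230057D06Rik read -3.16 on OSKA+4OHT and was not above background on the others, while the forward name chr7:69024136-69131056_F differed by -0.16. The nearest gene with a RefSeq symbol on the array, Ndn, an imprinted gene expressed from the paternal allele, lies 362791 bases away on the opposite strand and differed by -0.36.

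The stretch on chromosome X lies on the reverse strand at chrX:50400250-50410825, 12408 bases from Plac1 on the same strand, a gene of the placenta. Its region chrX:50407969-50410370_R read -1.67 on OSK-4OHT, -1.80 on OSK+4OHT, -0.84 on OSKA-4OHT and -0.00 on OSKA+4OHT, and chrX:50400250-50410825_R read -1.59, -0.82, -0.31 and 0.45. On these probes OSKA-4OHT was above both OSK arrays, which did not hold for every probe of the stretch, and OSKA+4OHT was highest. Of 9 probes, 5, 6, 8 and 9 were measured on the 4 arrays in that order. In OSKA cells 8 were measured on both arrays and 5 passed 2-fold, with a median of 1.08 and a range of 0.65 to 1.83, and against OSK+4OHT all 6 of 6 passed it, with a median of 1.53. The probe of the transcript C430049B03Rik inside it, at -2.10, -1.93, -1.55 and -0.54, rose by 1.01 in OSKA cells. Plac1 itself was measured on the OSKA arrays only, at -4.41 and -1.84, a difference of 2.58.

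**Figure D4:**
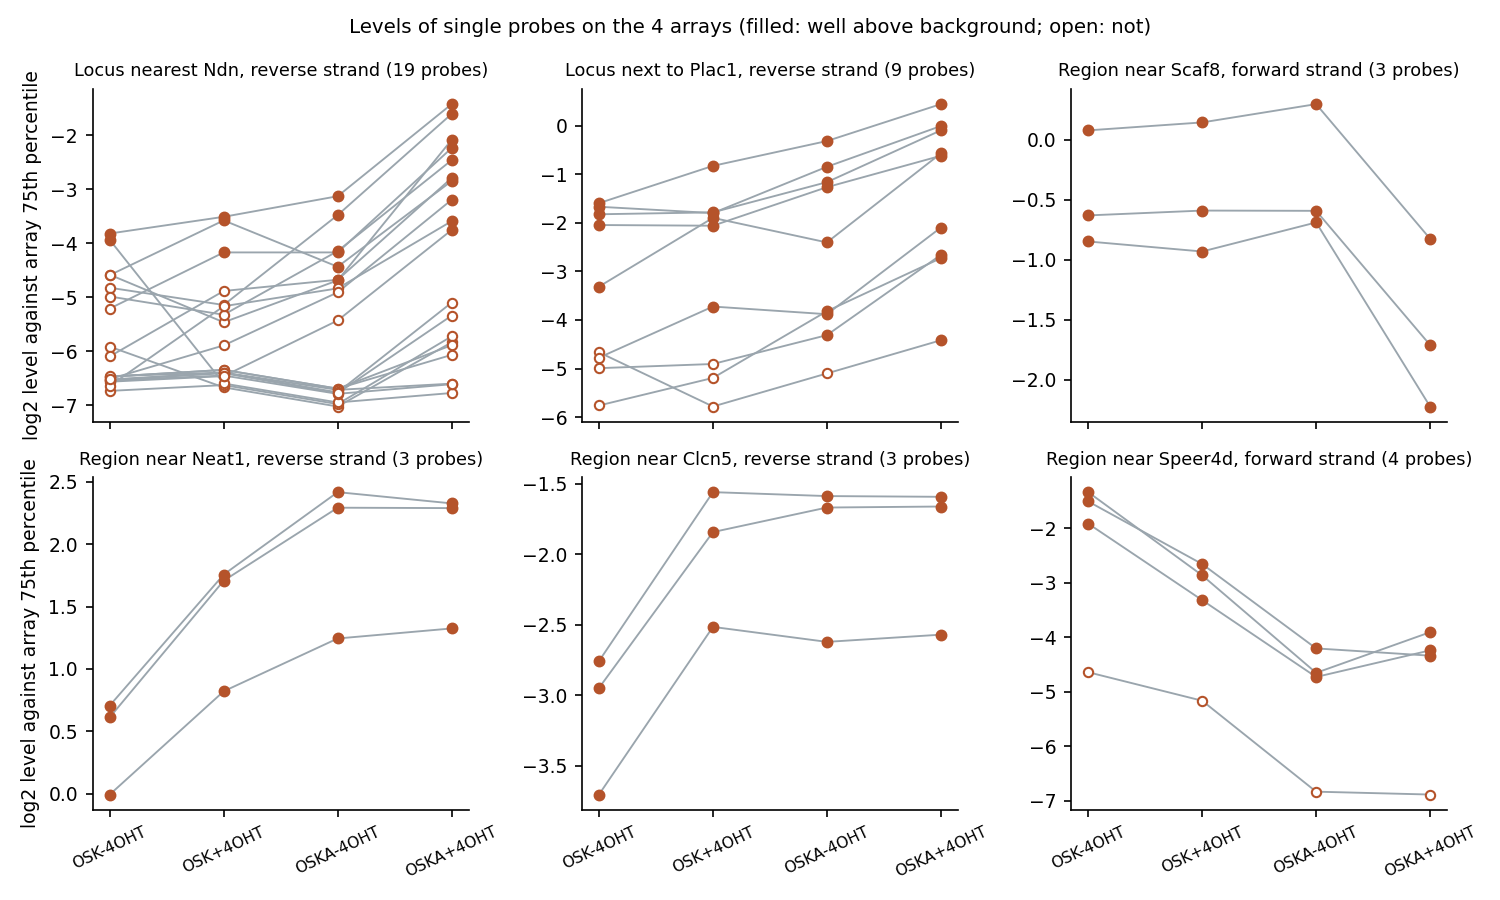
Each line is 1 probe, with its log2 level against the array's 75th percentile on the 4 arrays, filled where it was well above background and open where it was not, for all 19, 9, 3, 3, 3 and 4 probes of the stretch or region. The filled points of the chromosome 7 stretch are most frequent on OSKA+4OHT, all 9 probes of the chromosome X stretch are highest there, the region near Scaf8 is lowest there, and the regions near Neat1, Clcn5 and Speer4d differ on OSK-4OHT.

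In the direction of falls, 1 region had every measured probe at least 2-fold lower in OSKA cells. This was chr17:3346621-3347209_F, 147957 bases from Scaf8 on the same strand, whose 3 probes are printed above. They read -0.63, -0.59, -0.59 and -1.71, then -0.85, -0.93, -0.69 and -2.22, and 0.08, 0.15, 0.30 and -0.82 on OSK-4OHT, OSK+4OHT, OSKA-4OHT and OSKA+4OHT. On each probe the 3 arrays without active AKT lay close together and OSKA+4OHT was below them all. The differences against OSKA-4OHT were -1.12, -1.53 and -1.12, and that of the brightest probe was -0.91 with normexp. The joined loci with a lower median were chr18:63355660-63369610, reverse strand, nearest the ion channel gene Piezo2, at -1.32 over 5 probes, and chr15:82037381-82048125, forward strand, which holds a probe of Shisa8 on the opposite strand, at -1.03 over 3 measured of 7 probes, the brightest of which differed by -0.12. With spike-in scaling the latter median was -0.98. The brightest probe of chr18:63355660-63369610_R read -2.59, -2.60, -1.58 and -2.92, so that OSKA-4OHT stood above the other 3 arrays.

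Several of the largest single values were not matched by the other probes of their regions. The brightest probe of chr14:64735748-64736349_R was not above background on OSK-4OHT and read -3.90, -4.32 and -0.48 on OSK+4OHT, OSKA-4OHT and OSKA+4OHT, a rise of 3.84 in OSKA cells. Its other probes were not above background on OSKA+4OHT. The brightest probe of chr5:34696192-34722842_R read 1.88, 2.45, 2.23 and 4.63, a rise of 2.40, where the 3 other probes differed by -0.84, -0.26 and -0.26. That region lies 651 bases from Rnf4, a ubiquitin ligase gene of the opposite strand. The largest fall was that of chr12:53669634-53672010_F, 1488 bases from Arhgap5, at -0.80 on OSKA-4OHT and -3.85 on OSKA+4OHT and not above background on either OSK array. It was followed by chr14:30758342-30759669_R near Selenok at -2.03, -1.67, -0.62 and -3.39, of whose 3 probes the other 2 were measured nowhere. Next came chr18:35974770-35975091_F, with a difference of -2.36 in OSKA cells that was -0.91 with normexp. After it came chr17:13020750-13033750_F, 168 bases from Mas1, at -3.78, -3.94, -2.04 and -4.01, where OSKA-4OHT stood alone. The remaining rises of that rank lay between 1.78 and 1.98. In chr7:69088784-69089906_R of the stretch on chromosome 7 a second probe did rise, by 1.88 beside 1.87. In chr10:95729303-95755173_F, chr17:71242333-71273533_F and chr10:39607282-39619520_F the other probes were not above background on either OSKA array. In chr7:134779841-134840591_F, where the brightest probe rose by 1.90, 1 other probe was measured on both OSKA arrays and differed by -0.09.

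The region chr3:87757295-87774970_F, whose brightest probe has the letters of a Crabp2 probe, read 6.67, 6.56, 6.35 and 7.76, and the Crabp2 probe of the same letters 6.62, 6.42, 6.25 and 7.70. OSKA+4OHT was above the other 3 arrays on both. Of the region's 5 probes, the 4 for which the files give no coordinate rose by 1.38 to 1.48 in OSKA cells, and the 1 with a coordinate differed by -0.05. Its reverse name, chr3:87757295-87774970_R, read -1.55, -1.37, -1.62 and -0.45 and rose by 1.17.

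Some regions set OSK-4OHT apart from the other arrays on several probes. The 3 leukocyte markers were also lowest on that array, with a summed level of 6.20 beside 6.67 to 6.81, and their part in these differences was not tested. One, chr19:5834117-5835940_R, lies 6624 bases from the Neat1 probe on the same strand, the noncoding RNA on which nuclear paraspeckles are built. Its probes read 0.71, 1.76, 2.42 and 2.33, then 0.61, 1.71, 2.29 and 2.29, and -0.01, 0.82, 1.24 and 1.32 on OSK-4OHT, OSK+4OHT, OSKA-4OHT and OSKA+4OHT. OSK-4OHT was lowest on each and both OSKA arrays were highest. The AKT-MER difference without 4OHT was 1.71, 1.68 and 1.25 and the 4OHT difference in OSK cells 1.05, 1.09 and 0.83, which share the array OSK-4OHT. With spike-in scaling the 4OHT difference of the brightest probe was 0.73. The Neat1 probe on the array differed less, at 3.96, 4.07, 4.33 and 4.37. Whether the region and that probe read 1 transcript was not tested.

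The reverse order was seen at chr5:15146475-15170100_F, 16938 bases from Speer4d, one of a family of near-identical genes of the testis whose copies the probes may not separate. Its brightest probe read -1.51 on OSK-4OHT, -2.66 on OSK+4OHT, -4.21 on OSKA-4OHT and -4.34 on OSKA+4OHT, and its 3 measured probes fell by 2.70, 3.32 and 2.82 between OSK-4OHT and OSKA-4OHT and by 1.15, 1.53 and 1.40 between the OSK arrays. A second such region, chr5:14943275-14944205_F, next to Speer4e, read -1.51, -2.64, -4.28 and -4.17. Of the X chromosome, chrX:6790023-6896433_R, 53364 bases from the chloride channel gene Clcn5 on the same strand, was low on OSK-4OHT only, at -2.76 beside -1.56, -1.59 and -1.59 (0.87 with spike-in scaling in the 4OHT difference in OSK cells), and Clcn5 itself was higher by 0.95 on OSKA-4OHT than on OSK-4OHT.

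The AKT-MER difference without 4OHT had 8 regions with every measured probe at least 2-fold higher, beside 2, 3 and 3 in the other differences. With spike-in scaling, which lowered every value of this difference by the same 0.46 on the log2 scale, 1 such region was left and 15 had every probe lower. Besides the regions near Neat1 and Clcn5 these included chr4:3437474-3438228_R, near Tmem68, whose probes read -3.61, -2.48, -2.47 and -2.70 and -3.92, -2.80, -2.78 and -2.95. Joined regions gave chr16:34524589-34573439, reverse strand, with 5 of 7 probes past 2-fold and a median of 1.25, and chr3:96074625-96086375_F, where 3 of 4 probes passed 2-fold, with a median of 1.47, but the brightest differed by -0.13. The latter lies in a histone gene cluster, and a probe of the histone gene Hist2h2bb inside it on the same strand read -3.59, -2.42, -1.66 and -2.41. This probe, at 96082754-96082813, overlaps the most changed probe of the region, at 96082736-96082795 with a difference of 2.33. It also overlaps the brightest, at 96082796-96082855. The nearest gene with a RefSeq symbol on the array, 464 bases away, is Fcgr1, an Fc receptor gene of leukocytes, whose probe read 0.82, 1.33, 1.61 and 1.72. It was lowest on OSK-4OHT, like the 3 leukocyte markers, and its part in the difference was not tested. In the Hox B cluster, whose genes pattern the body axis, chr11:96175764-96176029_F, 6856 bases from Hoxb4, was higher by 1.15, and Hoxb4 read -0.95, -0.48, -0.19 and 0.10. With spike-in scaling the brightest probe near Neat1 stayed past 2-fold in this difference (1.25), as did the median of chr3:96074625-96086375_F (1.01). The values near Clcn5 (0.70), near Tmem68 (0.67) and near Hoxb4 (0.69) and the median of the stretch on chromosome 16 (0.78) no longer passed it, though they stayed above 0.

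The 4OHT difference in OSK cells, where no AKT-MER was present, had rises of 2.05 at chr8:126268510-126290810_R, 2.04 at chrX:165792277-165807952_F, 1.63 at chrX:93157194-93160542_R and 1.58 at chr15:102920547-102933472_F, the last within 100000 bases of the Hox C cluster. With normexp these rises were 0.85, 0.83, 0.72 and 0.74, all below 2-fold. The largest falls of this difference after that of chr10:21463672-21466812_F, which the twin probe did not match, lay between -1.56 and -1.48. The joined forward regions at chr4:136856064-136877219, on the strand opposite to Cdc42, a small GTPase, had a median rise of 1.27 over 3 of 11 probes, which was 0.95 with spike-in scaling. In the AKT-MER difference with 4OHT the joined regions with a median past 2-fold, besides those near Ndn, Plac1, Crabp2 and Speer4d, were chr10:62262341-62271961, reverse strand, 2487 bases from Tet1, an enzyme that oxidises 5-methylcytosine, at 1.07 (0.97 with spike-in scaling), and, lower, chr13:34693404-34717987 near Pxdc1 at -1.01, chr16:4585697-4594230 near Glis2 at -1.04 and chr1:134167181-134181457 near Klhdc8a at -1.07, all on the reverse strand.

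Regions that hold the probe of a known long noncoding RNA gene mostly differed by less than 2-fold. Of 40 such regions, 25 ran on the strand of the gene and 15 on the opposite strand only, and 29 were measured on all 4 arrays and 10 on none. Of the 25 on the gene's strand 17 were measured on all 4 arrays and 7 on none, and of the 15 on the opposite strand 12 and 3. No measured region on the gene's strand passed 2-fold in any of the 4 differences and 3 on the opposite strand did, beside 0.893% to 3.03% of all genes, transcripts and regions in a single difference, so that counts of this size say nothing of the strand. The genes were Tug1, Mir17hg, Dleu2, Pvt1, Airn, Malat1 and Neat1, Foxd2os, Snhg3, Dancr, Fendrr, Jpx, Ftx and Firre. The long reverse name over Malat1 and Neat1, chr19:5771425-5848475_R, differed by -0.25 in OSKA cells. Opposite in strand to Mir17hg, host of a microRNA cluster, the brightest probe of chr14:115423660-115463160_R read 0.69, 1.58, 1.09 and 2.10, a rise of 1.01 in OSKA cells, but another of its probes read -1.25, -1.94, -2.48 and -3.45, and the mean over its probes fell by 0.34. Opposite in strand to Pvt1, a transcript next to Myc, the brightest probe of chr15:61984389-62102500_R read -0.74, -0.15, 0.38 and -0.56, a difference of 1.12 between OSKA-4OHT and OSK-4OHT that was 0.66 with spike-in scaling, and the mean of its probes was -0.034. That interval also holds a probe of the histone gene Macroh2a3 on its own strand. The forward name chr4:131905739-131910814_F, opposite in strand to Snhg3, a host of small nucleolar RNAs, read 2.85, 2.48, 2.31 and 3.46, a rise of 1.16 in OSKA cells. No one of these changes was borne by a second probe at 2-fold in the same direction.

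Of 1062 intervals with both names, both were measured in 436, 415, 488 and 427 on the 4 arrays, 1 alone in 449, 455, 417 and 460, and neither in 177, 192, 157 and 175. In 279 intervals 1 name was measured on all 4 arrays and the other on none. The forward and reverse differences of 1 interval ran almost independently, with an r of 0.04, 0.06, 0.00 and 0.08 over 374, 395, 398 and 366 intervals. An interval changed on either name in 13, 20, 16 and 24 cases, and on both in the same direction in 0, 1, 0 and 0.

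For 101 pairs of probes from 85 intervals the forward and reverse sequences were exact complements. Here 28 pairs had 1 strand measured on all 4 arrays and the other on none, 7 had both on all 4 and 43 had neither on any. In the pair printed above, from chr14:67585234-67596823, the forward probe read 3.80, 4.02, 3.84 and 3.95, and the reverse probe, on the same 60 bases, read -6.66, -6.54, -6.91 and -6.54 and was above background on no array. Of intervals with both names measured on all 4 arrays the level differed most at chr14:78924115-78938125, where the forward name was among the 10 highest, and at chr13:73472571-73483846, which holds the noncoding gene Eprn. Since different probes stand behind the names there, no order of transcript amounts follows.

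The name intergenic did not hold throughout. Neighbours were taken from the probe positions of genes with a RefSeq symbol on the array, so that introns and exons could not be told apart. In 319 regions (6.95%) the interval held a probe of a gene on the same strand, and in 206 more on the opposite strand only. A further 712 regions had a gene's probe within 5000 bases, 2684 one further off but within 100000 bases, and 669 none within 100000. The share measured on all 4 arrays was 65.5% with a gene inside on the same strand, 51.9% on the opposite strand only, 53.4% within 5000 bases, 46.1% further off and 39.2% with none.

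The r between a region and its nearest gene was highest where the gene lay in the interval on the same strand. There the r between the differences of region and gene was 0.19, 0.41, 0.26 and 0.43 in the 4 differences, and for genes on the opposite strand only it was 0.06, 0.02, -0.12 and 0.04. Within 5000 bases it was -0.02, 0.34, 0.06 and 0.31, and beyond that 0.03, 0.09, 0.12 and 0.11. The r over all regions with a measured neighbour was 0.04, 0.16, 0.11 and 0.17 over 1631, 1727, 1721 and 1622 regions, which share the arrays and in part the neighbours. Of the 28, 58, 49 and 49 changed regions with a measured neighbour, the neighbour had the same sign in 11, 39, 29 and 32, and was itself 2-fold in that direction in 0, 2, 0 and 1.

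**Figure D5:**
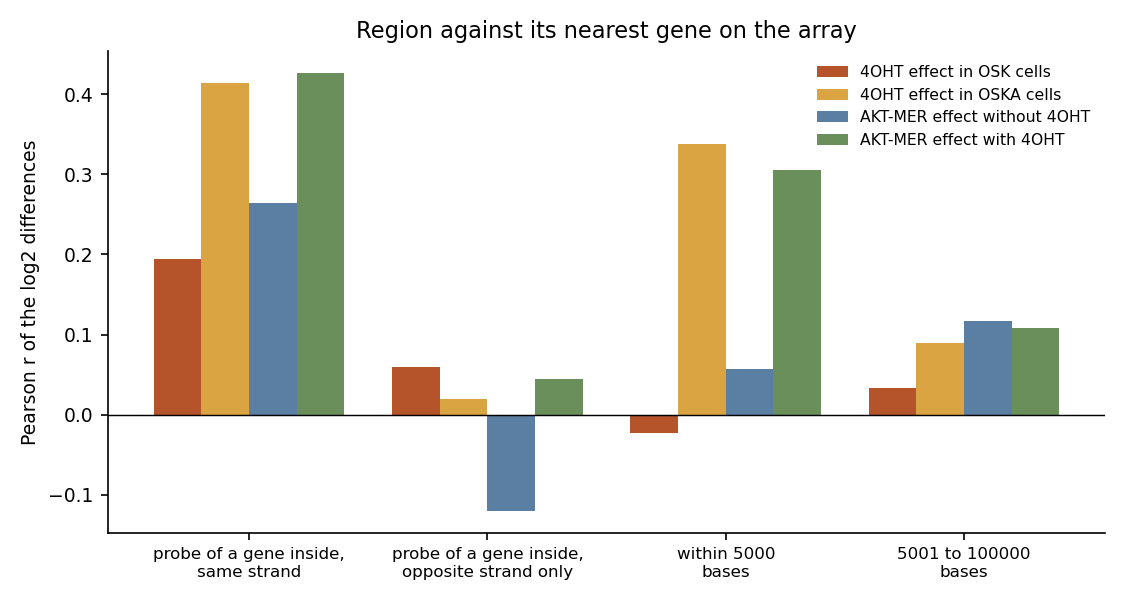
Bars give the Pearson r between the log2 difference of a region and that of its nearest gene on the array, by where the gene's probe lies, in each of the 4 differences. The bars for a gene inside the interval on the same strand reach 0.43 and those for the opposite strand only lie between -0.12 and 0.06.

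By the kind of gene within 100000 bases, few regions changed. Of 26 regions near pluripotency genes 18 were measured in the 4OHT difference in OSKA cells, with a median of -0.06 beside -0.07 over all regions, and 1 fell: chr3:34003359-34537330_F, near Sox2, at -1.19. Near p53 target genes 13 to 14 of 23 regions were measured in each of the 4 differences, near fibroblast genes 13 to 14 of 27, and none of them passed 2-fold. Over all measured regions 1.97% to 3.47% did, which is less than 1 of 14, so such counts of 0 are no result about these lists. Near Hox genes, 10 of 13 regions were measured in each difference, of which chr15:102920547-102933472_F was higher by 1.58 with 4OHT in OSK cells, chr11:96112907-96125798_F lower in OSKA cells, at -1.01, and the region next to Hoxb4 higher with AKT-MER. Of 15 measured of 16 near interferon response genes 1 fell in OSKA cells, near Isg15, at -1.01. Of 36 near developmental transcription factors 21 to 25 were measured in each difference and 1 passed, near Sox4, at 1.04 with AKT-MER and no 4OHT. Each list had at most 1 changed region in a difference, which does not set it apart from the share over all regions.

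Some features of sequence that the choice of the probes did not use set the members apart from the other probes. Their median content of G and C was 45%, beside 41.7%, and the share measured on all 4 arrays went up from 11.1% in the bin lowest in G and C to 44.9% in the highest, where the other probes ran from 47.4% to 64.2%. The motif AATAAA, the usual signal for cleavage and polyadenylation, searched on the probe's own strand only, was in 3.93% of member probes and 12.6% of other probes. Member probes with it were measured on all 4 arrays in 30.2% and those without in 26.2%. At least 25 letters in common with a probe of a gene or of another transcript on the array, which includes transcripts without a gene symbol, were found on the same strand in 229 probes of 213 regions, and 53.7% of these probes were measured on all 4 arrays, beside 26.4% of all member probes.

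Markers of the cells were measured in the same way. All 9 fibroblast markers were above background on every array, with a summed level of 10.2 to 10.4 on the log2 scale. Of 6 pluripotent cell markers 3 were above background on all 4 arrays and the defining Zfp42, Esrrb and Dppa4 on none (summed level 0.07 to 0.47). All 4 epithelial markers (0.43 to 1.01), 3 of 4 endothelial markers (3.00 to 3.57, Cdh5 on none) and the 3 leukocyte markers that could be matched (6.20 to 6.81) were above background on all 4 arrays. Single markers moved further than these sums: on OSK-4OHT, OSK+4OHT, OSKA-4OHT and OSKA+4OHT, Cdh1 read -0.81, -1.40, -1.86 and -1.99, Krt8 -0.39, -1.005, -1.71 and -1.13, Krt18 -1.08, -1.01, -0.81 and 0.05, Tek 0.41, -0.15, -0.42 and -0.86, and Kdr 2.71, 3.44, 3.01 and 3.24. The 3 leukocyte markers were each lowest on OSK-4OHT, with Ptprc at 0.16, 0.66, 0.55 and 0.47, Csf1r at 5.91, 6.51, 6.50 and 6.33, and Adgre1 at 3.63, 4.27, 4.24 and 4.32. Their part in the differences of the regions was not tested. A probe of Esr1, whose ligand-binding part is in AKT-MER, read 3.11 on OSKA-4OHT and 3.32 on OSKA+4OHT and was not above background on either OSK array. Of the delivered factors, Pou5f1 (Oct4) read 1.81, 1.23, 1.29 and 1.71 and Klf4 3.43, 3.24, 3.50 and 3.25, above background on all 4 arrays. The Sox2 probe was above background on no array. Whether these probes read the delivered sequences is not known here.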

How the data were processed

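RNA of 4 samples, 1 per group, was hybridised to single-colour (Cy3) Agilent 8x60K mouse arrays. The authors scanned them on an Agilent scanner and read the images with Agilent Feature Extraction 10.7.3.1, the version in the file headers. This software subtracted background and wrote processed signal intensities and a mark for signal well above background. The authors also deposited a value table of the same intensities, equal within rounding and used only as an alternative. Here flagged spots were left out and the log2 of the deposited processed intensity was set against each array's 75th percentile. Regions were read by their brightest probe, and differences of at least 2-fold were counted. A bound sets the measured array against the lowest signal well above background on the other array, or the dim probe's own signal where that is higher. The members and lists were chosen with earlier results of these data known.

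Named regions were the 10 highest in level, the 8 largest rises and falls with 4OHT in OSKA cells and 4 each way in the other differences, the 3 largest bounds each way, up to 10 regions per difference with every one of at least 2 measured probes past 2-fold, the 5 largest strand differences, up to 6 regions each way that set OSKA+4OHT apart, regions holding a listed noncoding gene, and the nearest genes. Gene names came from RefSeq tables (GRCm38.p6), used for symbols only, and positions from the files. The result of 1 list of neighbouring genes is not reported here. Joined loci, identical probes and pairs of complementary probes were examined after values had been seen. Alternatives were normexp with an offset of 50 followed by quantile normalization (limma 3.58.1, R 4.3.3), quantile normalization, spike-in scaling, no filter, other rules for probes, neighbours and folds, and the deposited value table. The counting was tested on simulated data. Other work used Python 3.11.15, numpy 2.4.6 and pandas 2.3.3. The number of arrays limits the precision, and no error between cultures could be given.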

Additional observations from a re-analysis of the deposited data

Results flagged for a closer look

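Across the regions measured on all 4 arrays, 4 moved at least 2-fold with 4OHT in OSK cells and at least 2-fold the other way in OSKA cells, and were set aside for that reason. With 1 array per group this difference between the cell groups was not tested. The region chr12:25852471-25852681_F read -2.89 on OSK-4OHT, -4.07 on OSK+4OHT, -3.92 on OSKA-4OHT and -2.47 on OSKA+4OHT, a difference of -1.18 in OSK cells and 1.45 in OSKA cells, which are 2.63 apart. The region chr13:28537223-28539860_R read -0.51, 0.86, 0.60 and -1.05, or 1.38 and -1.65, and the difference in OSKA cells minus that in OSK cells was -3.03. Its second measured probe differed by -0.70 in OSK cells and -0.13 in OSKA cells. For chr2:151343784-151344246_F the levels were -3.23, -2.19, -2.16 and -3.27, and the differences 1.03 and -1.11 lay -2.14 apart. For chr2:32950586-32984936_F they were -3.56, -2.49, -2.45 and -3.51, and the differences 1.07 and -1.05 lay -2.12 apart. In 3 of the 4, OSK+4OHT and OSKA-4OHT were the higher pair. Spike-in scaling moved every difference in OSK cells by -0.32, so that the rises of 1.03 and 1.07 on chromosome 2 no longer passed 2-fold.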

How the results depend on the processing

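No paired analysis was possible because each group had 1 array, and no replicate could be left out. Values are given in the order 4OHT in OSK cells, 4OHT in OSKA cells, AKT-MER without 4OHT and AKT-MER with 4OHT. With normexp on the unprocessed signals followed by quantile normalization, which were not changed one at a time, 3, 10, 5 and 11 regions were higher and 1, 7, 5 and 3 lower, all measured probes moved one way in 0, 0, 2 and 1 regions, r between the 2 brightest probes was 0.41 in the first, 0.50 in the third and 0.52 in the fourth, and 4 regions stood above and 1 below every other array on OSKA+4OHT. With spike-in scaling 8 were higher and 48 lower in the first and 8 and 137 in the third, all measured probes moved one way in 2 and 16, and 6 regions stood above every other array on OSKA+4OHT. Without a filter on dim probes 282, 303, 317 and 276 regions were higher and 278, 331, 296 and 333 lower, all probes moved one way in 14, 15, 28 and 15, r between the 2 brightest probes was 0.049, 0.079, 0.10 and 0.10, r with the neighbouring gene was 0.018, 0.036 and 0.048 in the last 3, and 122 regions stood above and 75 below on OSKA+4OHT; this setting counts differences between dim probes. Over regions measured on all 4 arrays, all probes moved one way in 1 region with 4OHT in OSKA cells. With the mean of a region's measured probes 13 were lower with 4OHT in OSK cells. At 1.5-fold 160, 100, 190 and 117 were higher and 70, 233, 117 and 206 lower. With any gene within 100000 bases as neighbour, r was 0.081 with 4OHT in OSKA cells and 0.082 for AKT-MER with 4OHT. Where most of its probes had to be measured, 1160, 1124, 1338 and 1148 regions were measured on the 4 arrays. Joined loci, a setting chosen after seeing the data, were higher in 3, 4, 4 and 4 and lower in 1, 2, 2 and 4 cases by the median of their probes. The counts were within 1.5 times of those reported with quantile normalization and the authors' value table. A mark required on every spot could change nothing, because each of these probes has 1 spot. The measured count under the mean of all probes was not run, because a mean carries no mark. Except where a construction is named, the cause was not tested.

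Of 95 changed values of named regions, 93 stayed at 2-fold in the same direction under quantile normalization, 80 under spike-in scaling, 34 under normexp and 74 under the mean of probes. In these settings the sign turned only under the mean of probes, at chr14:115423660-115463160_R (-0.34, from 1.01 with 4OHT in OSKA cells), chr15:61984389-62102500_R (-0.034, from 1.12 with AKT-MER without 4OHT) and chrX:165792277-165807952_F (0.31, from -1.31 with AKT-MER and 4OHT). Most regions are dim, so differences near the background limit rest on weak signal.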
